A study of Mus musculus with 5 samples.

Results

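Hipk1, Hipk2 and Hipk3 encode homeodomain-interacting protein kinases, a small family of nuclear serine/threonine kinases. Their transcripts were measured in cardiac atria of mice carrying one MRC2 E990G allele (het), a variant of an endocytic collagen receptor, and of wild-type (WT) mice. They were taken by symbol from the authors' deposited table and are 3 of 57186 genes in the files. Hipk2 was chosen by its higher expression in het atria in these data, and Hipk1 and Hipk3 were taken along as its paralogs. The het against WT difference of Hipk2 is therefore a description here, with no test. The 5 libraries analysed here (het 5, het 6 and het 7; WT 7 and WT 8) were polyA-selected and stranded, came from snap-frozen whole atria, and are all labelled batch 2. The series as a whole describes 7 het and 8 WT animals aged 4 to 10 months, and the labels used here give no age, sex or strain background for a single animal.

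HIPK kinases phosphorylate transcription factors and cofactors, among them p53 and the CtBP corepressor, and act in DNA damage, Wnt and TGF-beta signalling. HIPK2 is the best studied member: it promotes p53-dependent apoptosis, and its protein is kept low by ubiquitin ligases such as SIAH1 and MDM2. Because protein turnover sets much of HIPK2 activity, a transcript level is one part of its control.

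Library totals ran from 17784601 (WT 8) to 28353091 (het 7) expected counts, of which the 3 Hipk genes together took 5373 to 13690. Atrial cardiomyocyte markers (Nppa, Myl4, Myl7 and Sln) summed to between 27332 and 32573 library-size-scaled counts (CPM) in het libraries and to between 44470 and 48909 CPM in WT libraries, against at most 213 CPM for 4 ventricular markers. WT 7 stood apart by 938 counts of Y-linked Ddx3y, with 0 to 3 counts in the other 4 libraries. Xist, a female-expressed RNA, had 21.5 counts in WT 7, 6117 in WT 8 and 13247 to 15280 in het libraries. By these genes WT 7 reads as male and the other 4 libraries as female, so sex and genotype are partly confounded. The part of sex in the Hipk differences was not tested. The Hipk folds, the Hipk3 to Hipk1 ratio and the transcript results were also computed without WT 7. The gene lists, markers, likeness and length deciles were not.

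The annotated start regions of the family are shown first because several transcripts described below begin at different ones. RefSeq windows (build GRCm38.p6, minus strand) run from 250 bases before to 50 bases after an annotated start, and all 3 genes matched by symbol. Hipk1 and Hipk2 each have 2 windows and Hipk3 has 1. Capitals mark GC boxes (GGGCGG) and CCAAT boxes (CCAAT) on either strand.
Hipk1, first window, chr3:103791512-103791811: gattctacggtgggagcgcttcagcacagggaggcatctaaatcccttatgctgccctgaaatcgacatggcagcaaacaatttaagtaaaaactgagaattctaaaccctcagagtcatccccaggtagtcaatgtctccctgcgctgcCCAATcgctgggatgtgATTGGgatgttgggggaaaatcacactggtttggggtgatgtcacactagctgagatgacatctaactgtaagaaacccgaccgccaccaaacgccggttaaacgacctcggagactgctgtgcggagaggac
Hipk1, second window, chr3:103791226-103791525: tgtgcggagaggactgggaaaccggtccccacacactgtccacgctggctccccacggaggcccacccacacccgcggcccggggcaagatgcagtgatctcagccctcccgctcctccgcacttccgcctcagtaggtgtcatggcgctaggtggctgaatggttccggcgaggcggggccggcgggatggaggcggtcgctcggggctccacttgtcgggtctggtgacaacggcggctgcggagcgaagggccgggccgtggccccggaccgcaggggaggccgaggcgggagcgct
Hipk2, first window, chr6:38876141-38876440: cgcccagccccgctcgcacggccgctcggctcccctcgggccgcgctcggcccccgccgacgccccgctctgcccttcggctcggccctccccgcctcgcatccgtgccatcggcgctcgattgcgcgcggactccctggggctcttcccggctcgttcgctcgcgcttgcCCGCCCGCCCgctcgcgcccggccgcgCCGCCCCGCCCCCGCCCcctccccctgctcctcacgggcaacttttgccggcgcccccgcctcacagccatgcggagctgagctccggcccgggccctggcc
Hipk2, second window, chr6:38837262-38837561: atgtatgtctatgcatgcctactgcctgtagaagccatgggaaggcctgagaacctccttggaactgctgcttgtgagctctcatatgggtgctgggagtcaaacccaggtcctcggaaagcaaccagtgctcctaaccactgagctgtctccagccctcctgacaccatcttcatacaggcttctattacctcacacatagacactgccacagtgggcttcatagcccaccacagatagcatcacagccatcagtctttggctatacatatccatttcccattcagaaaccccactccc
Hipk3, chr2:104494440-104494739: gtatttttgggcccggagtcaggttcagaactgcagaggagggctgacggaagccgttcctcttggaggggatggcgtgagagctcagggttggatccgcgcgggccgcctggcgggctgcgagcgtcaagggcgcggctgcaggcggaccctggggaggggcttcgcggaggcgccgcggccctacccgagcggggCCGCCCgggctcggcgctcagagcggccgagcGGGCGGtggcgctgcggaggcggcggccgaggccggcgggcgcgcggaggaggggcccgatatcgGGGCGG
The first Hipk2 window is 80.7% G and C and holds 48 CpG pairs, against medians of 52.7% and 7 pairs over 32851 windows of this length. It holds 5 GC box matches, all on the opposite strand and some overlapping a neighbour, and the Hipk3 window holds 3. A GC box was present in 35.7% of all windows. The first Hipk1 window, at 51% G and C, has 2 CCAAT matches and no GC box (CCAAT was present in 37.4% of all windows). The TATA box TATAAA, found in 13.6% of all windows, was searched on both strands as well and is not in these 5 windows. Nor is the E-box motif CACGTG, which 7.15% of all windows hold. The cyclic AMP response element TGACGTCA (1.79% of all windows) and the TGACGT it contains (7.51%) are not in them either. The second Hipk1 start lies 286 bases downstream of the first and is the annotated start of the retained-intron transcript Hipk1-205. The second Hipk2 start lies 38879 bases downstream of the first, has 1 CpG pair, and is the start of the retained-intron transcript Hipk2-201. These matches are a description of the letters and not of bound factors.

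Levels were compared between genes per transcript length, in the deposited TPM, which are scaled to transcript length and library total. In each of the 5 libraries Hipk3 was the highest, Hipk1 the next and Hipk2 the lowest of the 3. Hipk3 stood at 37.1, 37.4 and 39.3 TPM in het 5, 6 and 7, against 20.9 and 23.5 TPM in WT 7 and 8. Hipk1 stood at 17.8, 19.9 and 19.7 TPM in het 5, 6 and 7, against 12.3 and 12.1 TPM in WT 7 and 8. All 3 het libraries lay above both WT libraries for both genes. Hipk2 stood at 13.4, 10.6 and 14.1 TPM in het 5, 6 and 7, against 5.91 and 4.06 TPM in WT 7 and 8. Its lowest het library (het 6) was still above its highest WT library (WT 7). Within each group no library of one of these genes reached into the range of its neighbour in this order. Hipk4, the most distant family member, was near the limit of detection, at 0.43 to 0.63 TPM in het and 0.49 and 0.63 TPM in WT libraries, and the groups overlapped.

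**Figure D1:**
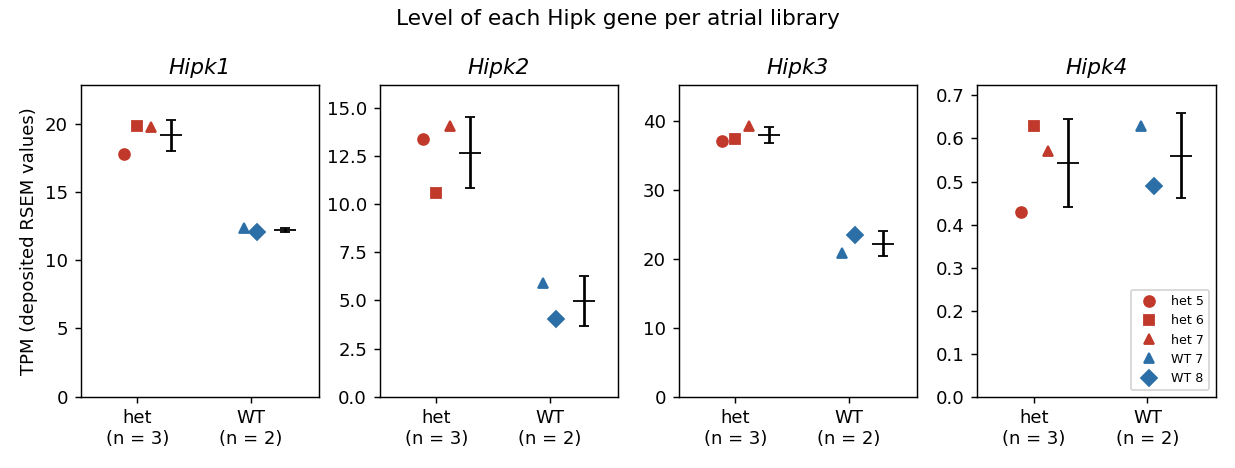
TPM of each Hipk gene (vertical axes, one scale per gene, all starting at 0) in 3 het and 2 WT libraries; black bars are the mean and SD of each group. Het points of Hipk1, Hipk2 and Hipk3 lie above both WT points, and those of Hipk4, between 0.43 and 0.63 TPM, overlap with WT.

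Summed over Hipk1, Hipk2 and Hipk3, the family held 67.9 to 73.2 TPM in het libraries and 39.1 and 39.7 TPM in WT libraries. Hipk3 made up 54.4% ± 0.70 of that sum in het (SD, n = 3) and 56.3% ± 4.2 in WT (SD, n = 2). The Hipk2 share was 19.6%, 15.6% and 19.3% in het 5, 6 and 7 and 15.1% and 10.2% in WT 7 and 8, so het 6 and WT 7 lay close together. Ratios of counts inside a library do not depend on how libraries are scaled. The log2 ratio of Hipk3 to Hipk1 counts averaged 1 ± 0.051 in het (SD, n = 3) and 0.91 ± 0.30 in WT (SD, n = 2), a difference of 0.084 that was smaller than the spread between the WT libraries (exact two-sided permutation p = 0.80). With 10 possible splits of 3 against 2 libraries the smallest such p is 0.2. That difference changed sign, to -0.13, without WT 7. The log2 ratio of Hipk2 to Hipk1 averaged -0.61 ± 0.27 in het and -1.47 ± 0.35 in WT, and the groups did not overlap. This ratio carries the choice of Hipk2 for its higher level in het, and it was not tested.

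Between genotypes, Hipk2 had the widest difference of the family. Scaled to library size by TMM, Hipk2 (ENSMUSG00000061436) had 97.6, 73.4 and 89.1 CPM in het 5, 6 and 7, against 40.2 and 27.3 CPM in WT 7 and 8. The edgeR fit gave a log2 fold change of 1.36 (SE 0.19), or 2.56-fold, which is the value that chose the gene. It ran from 1.12 without WT 8 to 1.67 without WT 7. Gene totals of Hipk2 were not whole numbers (2080.94 in het 5), as RSEM writes where some reads are divided between genes, while those of Hipk1 and Hipk3 were whole.

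Hipk1 (ENSMUSG00000008730), which binds the death-domain adaptor DAXX, had 129.4, 138.6 and 126.6 CPM in het 5, 6 and 7, against 93.6 and 89.9 CPM in WT 7 and 8. Hipk1 rose by 0.52 on the log2 scale (SE 0.12, adjusted p = 0.0367 by edgeR's quasi-likelihood test). Hipk3 (ENSMUSG00000027177), known for binding FAS and for phosphorylating FADD, had 266.0, 266.3 and 255.7 CPM in het 5, 6 and 7, against 152.0 and 196.7 CPM in WT 7 and 8. Hipk3 rose by 0.59 on the log2 scale (SE 0.14, edgeR adjusted p = 0.0391). Both passed the threshold of 0.05 in a comparison in which 5.64% of 16412 tested genes passed it in either direction and 2.99% as higher in het. Neither gene's groups overlapped, as was the case for 42.3% of tested genes (21.1% with every het library above both WT libraries). Hipk4 had 1.35 ± 0.17 CPM in het and 1.53 ± 0.097 CPM in WT and did not pass (log2 fold change -0.19, SE 0.42, adjusted p = 0.83). The Hipk1 call was lost with any 1 library left out (adjusted p from 0.0584 to 0.127), and the Hipk3 call with any but WT 8 left out (0.0789 to 0.128).

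Gene length moved with these folds. All 3 genes fall in the longest decile of tested genes (5356 bases and more), at mean lengths of 7144 (Hipk1), 6854 (Hipk2) and 7266 bases (Hipk3). In that decile the median log2 fold change was 0.33, where over all tested genes it was -0.0014, and 15.9% of genes were called higher in het. Every het library above both WT libraries was seen in 55.4% of them. Within this decile the folds of Hipk1 and Hipk3 were at the 75.6 and 84 percentiles, and that of Hipk2 at 99.5. The Hipk2 percentile carries its choice for a higher level in het, so it is not comparable with those of its paralogs. Once each library's dependence on length and GC content had been taken out, Hipk1 stood at 0.17 (SE 0.10, adjusted p = 0.57) and Hipk3 at 0.20 (SE 0.12, adjusted p = 0.58), and neither was called. The part of length in the Hipk differences was not tested further. Hipk2 stood at 1.17 (SE 0.17) in that fit. The same fit called 2 of 16412 genes (0.0122%), among them A130023E24Rik, named here after its values were seen.

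**Figure D2:**
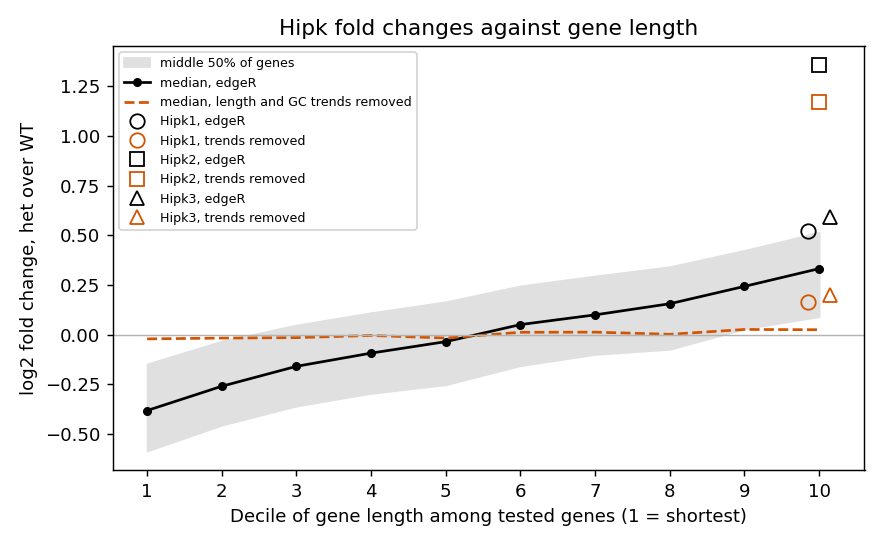
Log2 fold change (vertical axis, edgeR) by decile of gene length (horizontal axis); the line and band are the median and the middle 50% of tested genes and the dashed line is the median with length and GC trends removed. Open symbols are the Hipk genes before (black) and after (orange) that removal: Hipk1 and Hipk3 go from 0.52 and 0.59 to 0.17 and 0.20, and Hipk2 from 1.36 to 1.17.

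The authors' deposited table of their own limma comparison lists Hipk2 at a log2 fold change of 1.59 (deposited confidence limits 0.77 and 2.41). Of the 14927 genes in that limma comparison, Hipk2 among them, 0 (0%) passed an adjusted p of 0.05. An unadjusted p under 0.05 was listed for 836 genes. Hipk2 was chosen for its higher level in het, so its value there is a description and no test is read from it. Hipk1 is at 0.021 (limits -0.33 and 0.37) and Hipk3 at -0.12 (limits -0.63 and 0.39) in the authors' deposited table, so the sign of Hipk3 differs from that in the 5 libraries. Hipk4 is listed there at 0.47 (limits -0.45 and 1.40). The table does not name its animals and may include these 5 libraries, so its independence from them is not known. It gives t as 0 for small folds such as those of Hipk1 and Hipk3, so its p-values are not tests against a fold of 0.

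**Figure D3:**
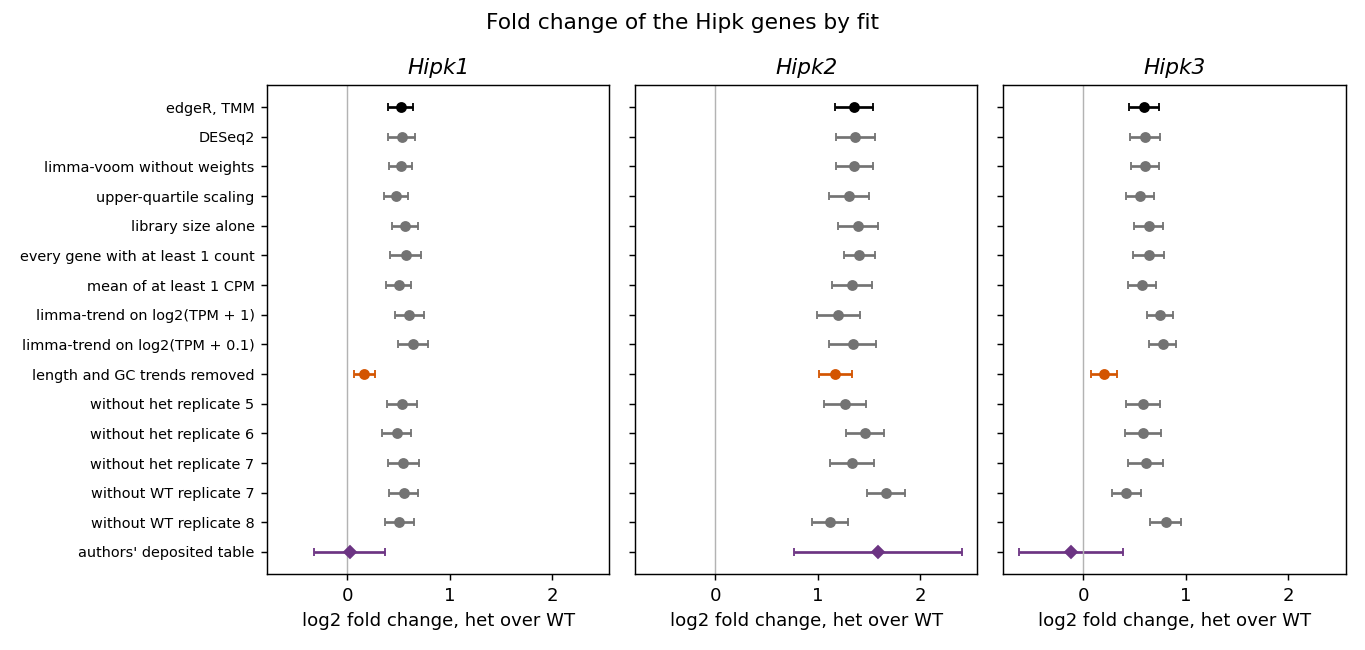
Log2 fold change of Hipk1, Hipk2 and Hipk3 (horizontal axes, one common scale) under each fit, with bars of 1 SE; the lowest row is the authors' deposited table with its confidence limits. Hipk2 stays at 1.12 or above in every row, while Hipk1 and Hipk3 are at 0.17 and 0.20 with trends removed and near 0 in the deposited table (0.021 and -0.12).

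Markers of several cell types also differed between the groups, in a comparison where 5.64% of tested genes were called and 42.3% did not overlap. In whole tissue, fewer cells of a type and less RNA per cell cannot be told apart. The summed level of 4 macrophage markers was 188.3 to 257.3 CPM in het and 153.3 to 159.9 CPM in WT libraries, with 2 of 4 (Adgre1 and Cd163) called higher. Erythroid markers summed to 1847 to 3814 CPM in het and 437.5 to 1582 CPM in WT, with 0 of 4 called. Smooth muscle markers summed to 86.2 to 127.2 CPM in het and 174.7 to 192.9 CPM in WT, with 1 of 4 called lower. Of the 4 ventricular markers 1, Myh7, was called lower, and their sums overlapped (86.5 to 213 CPM in het, 156 and 174 CPM in WT). Of the 4 atrial cardiomyocyte markers 2 were called lower, and of 4 pan-cardiomyocyte markers 1 was called higher. Their summed levels did not overlap either (29985 to 34044 CPM in het and 34864 to 39116 CPM in WT for the pan-cardiomyocyte list). Fibroblast markers (1151 to 1306 CPM in het, 828.4 to 1187 CPM in WT) and endothelial markers (863.8 to 1045 CPM in het, 821.8 to 900.5 CPM in WT) overlapped and had 0 of 4 called each. Skeletal muscle markers were lower in sum (547.6 to 704.7 CPM in het, 934.2 to 1068 CPM in WT), with 1 of 4 called. Nearly all of that sum was Ckm, a creatine kinase gene that heart muscle also expresses; Acta1, Mylpf and Tnnt3 were at 0.164 to 4.79 CPM. The adipocyte markers overlapped (5.35 to 76.3 CPM in het, 19.1 and 54.2 CPM in WT) and 1 of them was at 0 in a het library. No defining marker of the other types was at 0 in any library, and the part of cell makeup in the Hipk differences was not tested.

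Transcripts were compared next, because the share of a gene's counts given to each transcript is separate from the gene total that chose Hipk2. In each gene one long coding transcript held nearly all counts. Hipk3-201 held 97% ± 1.2 of Hipk3 counts in het (SD, n = 3) and 99.1% ± 0.71 in WT (SD, n = 2). Hipk1-203 held 95.4% ± 0.29 of Hipk1 counts in het and 97.9% ± 0.37 in WT. Hipk2-206, which begins 25 bases downstream of the first Hipk2 start, held 93.6% ± 2 in het and 92.9% ± 0.29 in WT. The share of all transcripts whose groups do not overlap was not computed, so non-overlap here and below has no transcript background. Among tested genes, 42.3% had groups that did not overlap. The groups did not overlap for Hipk1-203 (exact two-sided permutation p = 0.20, the smallest possible). They did overlap in the deposited isoform percent, the transcript's share of its gene's TPM, which was 85.69, 86.55 and 84.76 in het 5, 6 and 7 and 93.07 and 81.27 in WT 7 and 8 (exact p = 0.80). For Hipk2-206 the count shares overlapped (p = 0.80 by the same exact test), but its isoform percent did not, at 87.75, 88.62 and 83.08 in het 5, 6 and 7 and 81.83 and 72.38 in WT 7 and 8 (exact p = 0.20). For Hipk3-201 the lowest WT library, at 98.6%, was just above the highest het library, at 98.4% (exact p = 0.20). In isoform percent Hipk3-201 overlapped, at 91.27, 96.92 and 92.85 in het 5, 6 and 7 and 96.18 and 99.24 in WT 7 and 8 (exact p = 0.40). Whether the groups of a leading transcript overlapped therefore depended on the share used for all 3 genes. Isoform percent is a share of TPM, so short transcripts weigh more in it than in counts. In WT 8 the 545-base Hipk1-204 had 5.62 counts and an isoform percent of 14.84. Hipk2-201, of 1723 bases, had 28.67 counts and an isoform percent of 26.37 in WT 8.

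Hipk1-205, annotated with a retained intron and starting at the second Hipk1 window, stood out when the values were seen. It held 100.5, 100.42 and 150.04 expected counts in het 5, 6 and 7, against 27.8 and 11.5 in WT 7 and 8. Its share of Hipk1 counts was lowest among het libraries in het 6, at 3.23% (Wilson 95% interval 2.66 to 3.91). The higher WT share was 1.23% in WT 7 (interval 0.85 to 1.77), so the intervals, which cover counting error only, did not touch. Its isoform percent was 11 to 13.47 in het libraries and 4.22 and 2.30 in WT 7 and 8, without overlap either. The log2 difference in usage relative to the whole gene was 1.87 (edgeR diffSpliceDGE, adjusted p = 0.0593 over 31850 transcripts, of which 1.9% were called). limma-voom with diffSplice sets a transcript against the gene's other transcripts, which is a different measure. Its value was 1.87, and it called Hipk1-205 (adjusted p = 0.021, with 1.05% of transcripts called). By edgeR with 1 het library left out the difference was 1.79 to 1.96 and not called (adjusted p from 0.171 to 0.352). It was 2.33 without WT 7 and 1.56 without WT 8. Across all retained-intron transcripts, usage was called higher in het for 0.337% of 6823 by edgeR and for 0.0879% by limma. They took 2.44% to 2.54% of all expected counts in het libraries and 2.54% and 2.94% in WT libraries, so their total was not higher in het.

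Of the remaining transcripts, 2 had an unadjusted p under 0.05 for usage and neither was called by edgeR. Hipk3-202, a coding transcript that ends 3300 bases before Hipk3-201, had 177.6, 95.1 and 194.8 counts in het 5, 6 and 7 and 37.1 and 4.07 in WT 7 and 8. Its share was 2.45% ± 0.78 in het and 0.56% ± 0.62 in WT, without overlap (usage 2.27 on the log2 scale, edgeR adjusted p = 0.221). How often other transcripts show no overlap was not computed. Hipk2-201, from the downstream Hipk2 start, had 5.27, 11 and 5.41 counts in het 5, 6 and 7, against 8.49 and 28.7 in WT 7 and 8. In WT 8 this was 6.2% of Hipk2 counts (Wilson 95% interval 4.35 to 8.76) and in the other 4 libraries under 1%. For this short transcript the isoform percent was higher, between 1.04 and 3.49 in het libraries, 4.06 in WT 7 and 26.37 in WT 8. Its usage difference was -3.11 (edgeR adjusted p = 0.141). Without WT 7, where WT 8 stands alone, Hipk2-201 and Hipk3-202 were called (adjusted p = 0.0061 and 6.7e-04), and without WT 8 neither was. Hipk2-205, the coding transcript that begins nearest to the downstream start, had 0 counts in all 5 libraries. Shares of transcripts that differ mainly at their ends come from RSEM's model and are less certain than gene totals.

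**Figure D4:**
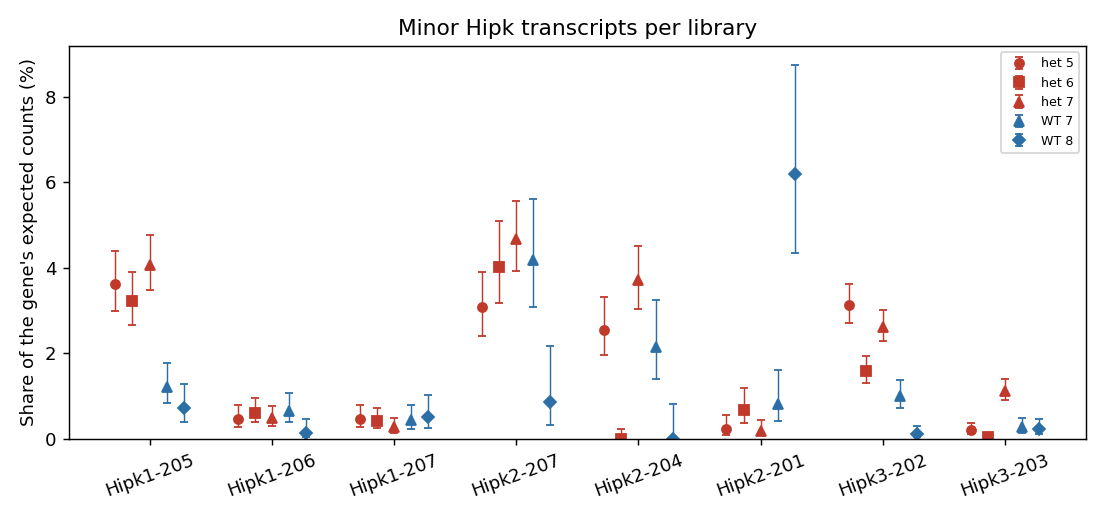
Share of a gene's expected counts (vertical axis, percent) held by 8 minor Hipk transcripts in each of 5 libraries, with Wilson 95% intervals for counting error. For Hipk1-205 the 3 het points lie above both WT points, and for Hipk2-201 WT 8 lies apart at 6.2%.

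The genes whose profile over the 5 libraries was most like that of Hipk2 were found by the root mean square difference of centred log2 CPM, among 9512 genes with a mean of at least 10 CPM. Nearest was Fosb, an immediate early AP-1 subunit gene, at 0.12 log2 units. Fosb had 66.7, 50.1 and 66.1 CPM in het 5, 6 and 7, against 34.4 and 20.6 CPM in WT 7 and 8, so het 6 and WT 8 were the low libraries of their groups, as for Hipk2. Also near were Pdpr (0.18), a regulator of pyruvate dehydrogenase phosphatase, Ppara (0.21), a fatty acid sensing nuclear receptor, and Abca9 (0.22), a lipid transporter family gene. Within the family, Hipk1 was at 0.48 (rank 445) and Hipk3 at 0.50 (rank 605). The ranking selects for the profile of Hipk2, which includes the higher het level that it was chosen for. A gap between the groups and shared low libraries in the nearest genes therefore follow from the ranking. These are descriptions of 5 libraries, and each library's depth and scaling are common to all the genes compared.

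Genes around the kinases were read from 6 lists of relatives, regulators, partners and targets. Of 88 different genes 86 were tested; 4 were higher in het (4.65%, against 2.99% of all tested genes) and 1 was lower (1.16%, against 2.66%). Their median log2 fold change was 0.015. Prpf4b, Ep300 and Creb1 were among the higher genes and the lower one was Bax. None of the 5 was called once length and GC trends were removed (adjusted p 0.0959 for Ep300, 0.645 for Prpf4b, 0.677 for Creb1 and 0.962 for Bax).

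Among 10 tested kinases related to the HIPKs (DYRK and CLK kinases, Hipk4 and Prpf4b), 1 was higher and 0 were lower, with a median log2 fold change of 0.0089. That gene was Prpf4b, a kinase of pre-mRNA splicing factors, at 76.6 to 82.4 CPM in het and 54.4 and 57.8 CPM in WT libraries (log2 fold change 0.51, SE 0.12, edgeR adjusted p = 0.0352). The groups did not overlap. With trends removed it stood at 0.14.

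Of 11 ubiquitin and SUMO regulators of HIPK2, 0 passed in either direction (median -0.072). Zyx, which encodes zyxin, a focal adhesion protein reported to stabilise HIPK2, came closest, at 83.4 to 88.1 CPM in het and 112.5 and 120.1 CPM in WT libraries (log2 fold change -0.44, adjusted p = 0.0507). For the ubiquitin ligase genes Siah1a and Mdm2 the values were -0.056 and 0.15 (adjusted p = 0.865 and 0.542).

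Of 27 transcription partners and substrates, the largest list, 3 were higher and 0 lower (median 0.19). Of all tested genes 2.99% were called higher. With trends removed 0 of the list were called and the median was 0.075. Ep300, the gene of the acetyltransferase p300, a HIPK2 substrate, had 63.3, 64.5 and 59.1 CPM in het 5, 6 and 7 and 37.5 and 32.7 CPM in WT 7 and 8. Ep300 rose by 0.83 (SE 0.13, adjusted p = 0.0229), and stood at 0.55 with trends removed. The CREB gene Creb1 rose by 0.63 (SE 0.14, adjusted p = 0.0321), and with trends removed it was at 0.15. Both genes are long, at 8605 bases for Ep300 and 7336 bases for Creb1. In the authors' deposited table Ep300 stands at 0.16 and Creb1 at 0.53, and neither passed there.

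Target genes of the pathways gave few calls. Of 17 p53 targets 0 were higher and 1 was lower (median 0.11): the pro-apoptotic gene Bax, at 28.9, 25.9 and 25.1 CPM in het 5, 6 and 7 and 44.4 and 36.5 CPM in WT 7 and 8 (-0.60, SE 0.14, adjusted p = 0.0342). Bax is short (900 bases), and its fold was -0.024 with trends removed. Cdkn1a, the cell cycle inhibitor gene, was at -0.16 (adjusted p = 0.893). Of 11 tested Wnt targets 0 passed (median 0.037); the 2 of highest level were Ccnd1, encoding cyclin D1 (38.9 ± 6.1 CPM in het, 35.9 ± 3.4 CPM in WT, adjusted p = 0.676), and Axin2 (11.7 ± 1.8 CPM in het, 10.3 ± 3 CPM in WT, adjusted p = 0.659). Of 13 TGF-beta and Smad3 targets 0 passed (median -0.22). The matricellular gene Ccn2 had 435.9 ± 120 CPM in het and 521.3 ± 125 CPM in WT (-0.26, adjusted p = 0.585), and the collagen gene Col3a1 360.2 ± 129 CPM in het and 395.3 ± 35 CPM in WT (-0.13, adjusted p = 0.823).

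**Figure D5:**
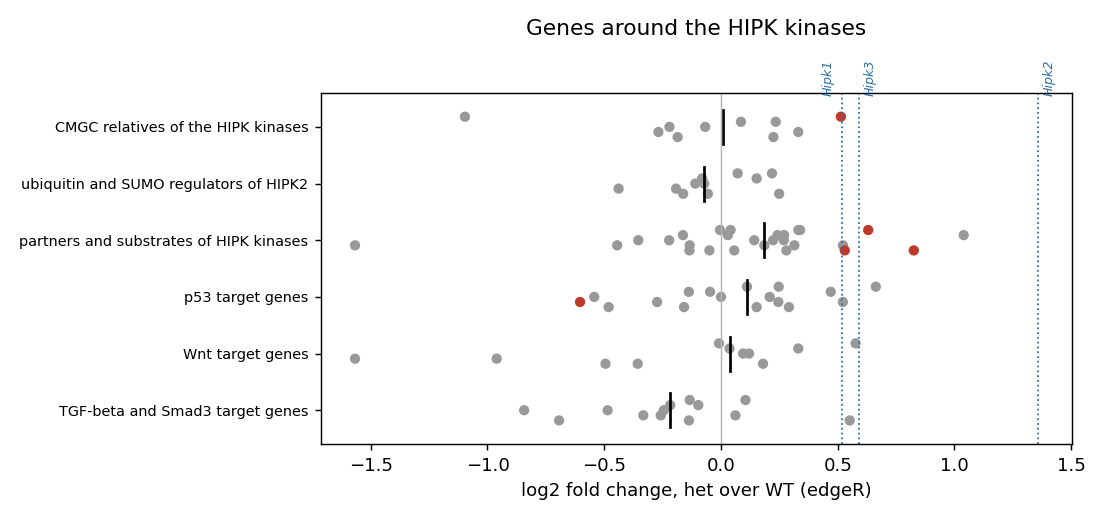
Log2 fold change (horizontal axis, edgeR) of every tested gene in the 6 lists (rows); red points passed an adjusted p of 0.05, grey did not, black bars are list medians and dotted lines mark Hipk1, Hipk3 and Hipk2. Red points include Prpf4b, Ep300 and Creb1 on the higher side and Bax is the one on the lower side, and no list gene lies as far above 0 as Hipk2 at 1.36.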

How the data were processed

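Atrial polyA RNA of 3 het and 2 WT animals was analysed, grouped by sample title. Per the submitters' processing notes, the tools were STAR, RSEM, SAMtools, Trim Galore, FastQC, MultiQC, edgeR and limma, with build GRCm39; their versions are not given in the sources used here. Expected counts (not normalized) per gene and transcript are RSEM output as deposited by the authors. TPM values and each transcript's isoform percent were also deposited by the authors, scaled to length and library total. FPKM values, deposited by the authors beside the TPM, were not used. The authors' deposited table gives log2 fold changes, moderated t scores and p-values.

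Expected counts were rounded, filtered by edgeR's default (16412 genes), scaled by TMM and tested by edgeR's robust quasi-likelihood test, with Benjamini-Hochberg adjustment over all tested genes and a threshold of 0.05. SE is the absolute log2 fold change over the square root of F. Transcript usage was tested by diffSpliceDGE. Length and GC trends per library were fitted with mgcv and entered as offsets. Wilson intervals cover counting error only. GC came from the reference transcripts (known for 97.9% of tested genes). The reference is of another build, so coordinates apply to the printed start windows only. Per-list names were the called genes with the smallest p, up to 4, or the 2 of highest level; a few others are named because they neared the threshold or are central to the pathway (Siah1a, Mdm2, Cdkn1a), chosen after their values were seen. Some genes that the naming rule selects are not reported here. Members and lists were chosen with earlier results of these data known. Nothing in the labels names separate litters or cohorts, and p-values measure the spread between these 5 libraries. The fits were tested on simulated data with known changes. Where a length trend was simulated, most calls of the fit without length and GC offsets were false and few with them. That trend was set stronger than the one in these data (4314 calls without offsets, against 926 here). The share of false calls there therefore does not carry over to the calls reported here. Most simulated usage changes went unrecovered, so a usage test that misses says little. Fits ran in edgeR 4.0.16, DESeq2 1.42.0, limma 3.58.1 and mgcv 1.9.3, under R 4.3.3.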

Additional observations from a re-analysis of the deposited data

How the results depend on the processing

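Hipk1 and Hipk3 stayed above 0 in all 14 alternative fits, and Hipk2 ran from 1.12 to 1.67 (1.36 in the reported fit). The Hipk1 and Hipk3 calls were kept under DESeq2, limma-voom, upper-quartile scaling, library size alone and both other count filters. They were lost in limma-trend on log2(TPM + 1) (0.61 and 0.75) and on log2(TPM + 0.1) (0.64 and 0.77) and also once the dependence on length and GC was taken out (0.17 and 0.20). Under DESeq2 the median of all genes was -0.18, and relative to it Hipk1 stood at 0.71, Hipk2 at 1.55 and Hipk3 at 0.78. On log2(TPM + 0.1) the median of all genes was 0.13, and relative to it Hipk1 stood at 0.51, Hipk2 at 1.21 and Hipk3 at 0.64. Leaving out 1 library gave 0.48 to 0.55 for Hipk1, 0.42 to 0.80 for Hipk3 and 1.12 to 1.67 for Hipk2. The 926 calls over all genes became 1398 with DESeq2, 459 with limma-voom, 2211 with every gene with a count, 1 and 5 on log2(TPM + 1) and log2(TPM + 0.1), and 2 with trends removed. The gene called in both TPM fits was Gm10273, named after its values were seen. With 1 library left out the calls ran from 0 (edgeR without het 7, with 3549 at an unadjusted p under 0.05) to 878 (without WT 8). Upper-quartile scaling gave 327 higher and 568 lower calls and library size alone 795 and 391, against 490 and 436. Among Hipk transcripts, 0 were called by edgeR, where Hipk1-205, Hipk2-201 and Hipk3-202 had an unadjusted p under 0.05, 1 by limma-voom, and 0 to 2 with 1 library left out. The share of Hipk2-206 was 0.71 percentage points higher in het. With 1 library left out this difference ran from -0.14 (without het 6) to 1.80 (without het 7). In isoform percent Hipk2-206 was 9.38 points higher in het, with WT 8 the lowest library at 72.38. The same alternative gave -1.50 for Hipk1-203 and -4.03 for Hipk3-201, against -2.52 and -2.11 by counts. The Hipk3 to Hipk1 difference ran from -0.13 (without WT 7) to 0.30 (without WT 8). Fits without WT 7 or WT 8 hold 1 WT library, whose spread is taken to equal that among het libraries. The causes of these changes were not tested. No paired analysis was possible because the groups share only the replicate number 7. Hipk4 (25 to 39 counts) and the minor transcripts are limited by depth.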
